A study of Homo sapiens with 2 samples.

Results

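Ribosomal protein genes encode the protein part of the cytosolic ribosome, and the accessibility of their promoters was compared between hTBLCs and primed cells of WIBR3, a human embryonic stem cell line. The genes were chosen by symbol, as protein-coding genes named RPL or RPS plus a number together with RPLP0, RPLP1, RPLP2 and RPSA and without the RPS6K kinases. This gave 87 genes of 20056 protein-coding genes, of which 2 on chromosome Y were not analysed. An annotated start was available for 68 of the remaining 85, and these 68 are described at their promoters, beside 15812 protein-coding genes with a start. The other 17 are described at their gene ends.

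ATAC-seq, in which a transposase cuts and tags open DNA, was made from 1 library of hTBLCs and 1 library of primed cells. The labels list both as WIBR3 and as human embryonic stem cells. Primed cells are the conventional culture state of this line, and hTBLC is the study's name for cells of the other state, which its title links to totipotency and to repression of the spliceosome. The labels used here give neither the agent nor the time of treatment, and no genetic change in either library. Each group being a single library, the states were not tested against each other, and all intervals cover counting error only.

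The ribosome is built from a small subunit, which reads the mRNA, and a large subunit, which joins the amino acids. RPS genes encode proteins of the small subunit and RPL genes those of the large one, and RPLP0, RPLP1 and RPLP2 form the stalk that recruits translation factors. Mammalian ribosomal protein genes are expressed in every growing cell, and their transcripts usually begin at a cytosine within a stretch of pyrimidines, the TOP element, through which their translation is controlled by nutrient signalling.

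The value compared is the pileup, the number of reads or fragments stacked at the summit of the strongest peak region within 1 kb of a start. It was solved from the fold enrichment and p-value that the authors deposited for each peak. The most frequent local background, 1.96 in hTBLC and 1.79 in primed, served as relative depth. It equalled the 1st percentile of local background in each library. Each ratio of hTBLC to primed pileup was divided by the ratio of these 2 backgrounds, 1.09. This depth was not measured from read numbers. The authors' lists held 299673 hTBLC and 295753 primed peaks, which merged to 250859 and 242009 regions. As a check of the labelled cell type, 5 of 6 stem cell markers, all but POU5F1, had an annotated start. All 5 had a promoter region in both libraries. SOX2 had pileups of 85 in hTBLC and 116 in primed, and NANOG 21 in hTBLC and 35 in primed, scaled ratios of 0.67 and 0.55. LIN28B had 107 in hTBLC and 75 in primed, and ZIC2 68 in hTBLC and 49 in primed, scaled ratios of 1.30 and 1.27. Intervals are not given for these markers. DNMT3B had 85 in hTBLC and 59 in primed, but its strongest regions in the 2 libraries did not overlap, so no ratio was taken. The 8-cell stage markers ZSCAN4, DUXA and LEUTX had no promoter region in either library, and fibroblast markers were not analysed here.

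Nearly all ribosomal protein promoters were open in both states. A promoter region was present in both libraries at 66 of 68 genes (97.1%, Wilson 95% interval 89.9 to 99.2), against 79.3% of all protein-coding genes with a start. Related lists were as open, with 100% of 69 mitochondrial ribosomal protein genes and 100% of 106 ribosome biogenesis genes. The share was 97% of 33 translation factors and other TOP genes. No ribosomal protein gene had a region in hTBLC alone, where all genes gave 2.25%, and 1 had a region in primed alone, where all genes gave 2.90%. That gene was RPL10L, a testis-specific copy of RPL10, with a primed pileup of 29 (19.4 to 41.6) in a region of 314 bp at chr14:46651826-46652139.

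RPL19, which encodes a large subunit protein, had no region within 1 kb of its starts in either library, against 15.5% of all genes. The nearest regions ended 2303 bp upstream in hTBLC, with a pileup of 36, and 2127 bp upstream in primed, with a pileup of 48. The lists lack 327 ranks in hTBLC and 252 ranks in primed, and a region on such a line would count as absent here.

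Pyrimidine runs at the start were frequent in these promoters. Sequences were read at the most 5′ annotated start of each gene, while pileups used the windows of all its starts. At a gene with several starts, the sequence and the pileup can therefore belong to different starts. In 51 of 68 promoters (75%) a run of at least 8 pyrimidines, C or T on the sense strand, overlapped the 10 bases on either side of the start, against 14.7% of 15812 promoters and 14.5% of those of mitochondrial ribosomal proteins. The median run was 11 bases in ribosomal protein promoters and 4 in all promoters. The annotated transcript began with C at 48 of 68 genes (70.6%), against 11.3% of all genes. The run length was chosen as a measure after the sequences had been seen.

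The promoters shown here are those of the 4 genes with the highest and the 4 with the lowest scaled ratio of hTBLC to primed pileup, and of RPLP0 and RPLP2 for the stalk. Each runs from 80 bases before the start to 20 after it, 5′ to 3′ on the sense strand, from RefSeq on GRCh38.p14. Capitals mark the longest pyrimidine run at the start.
RPS27, chr1:153990682-153990781, + strand: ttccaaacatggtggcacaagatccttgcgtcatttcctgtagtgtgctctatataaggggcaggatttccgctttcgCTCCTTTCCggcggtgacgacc
RPL27A, chr11:8682712-8682811, + strand: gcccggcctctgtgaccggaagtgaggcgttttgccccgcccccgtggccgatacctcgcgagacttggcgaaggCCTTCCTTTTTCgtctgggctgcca
RPL3, chr22:39319604-39319703, - strand: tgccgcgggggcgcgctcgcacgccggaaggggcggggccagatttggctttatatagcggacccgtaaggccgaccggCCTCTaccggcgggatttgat
RPS18, chr6:33271995-33272094, + strand: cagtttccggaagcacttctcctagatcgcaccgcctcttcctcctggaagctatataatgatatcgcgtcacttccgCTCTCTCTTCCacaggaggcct
RPL35A, chr3:197950110-197950209, + strand: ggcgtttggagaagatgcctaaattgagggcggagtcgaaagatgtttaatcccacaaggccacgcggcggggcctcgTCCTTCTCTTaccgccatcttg
RPL4, chr15:66504836-66504935, - strand: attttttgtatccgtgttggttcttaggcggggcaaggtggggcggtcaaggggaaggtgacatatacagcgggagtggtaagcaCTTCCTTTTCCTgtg
RPS7, chr2:3575180-3575279, + strand: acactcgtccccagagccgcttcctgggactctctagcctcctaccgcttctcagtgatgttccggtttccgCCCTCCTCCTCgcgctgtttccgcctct
RPL12, chr9:127451387-127451486, - strand: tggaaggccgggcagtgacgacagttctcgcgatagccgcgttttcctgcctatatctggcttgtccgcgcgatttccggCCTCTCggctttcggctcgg
RPLP0, chr12:120201092-120201191, - strand: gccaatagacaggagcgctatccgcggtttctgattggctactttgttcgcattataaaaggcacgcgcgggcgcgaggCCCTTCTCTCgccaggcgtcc
RPLP2, chr11:809887-809986, + strand: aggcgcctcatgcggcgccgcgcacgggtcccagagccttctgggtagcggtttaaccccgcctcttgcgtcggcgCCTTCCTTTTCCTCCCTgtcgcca

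Pyrimidine runs were found in both sets of 4, among the promoters of highest and of lowest ratio. The run was 9 bases at RPS27, 12 at RPL27A, 5 at RPL3 and 11 at RPS18. It was 10 bases at RPL35A, 12 at RPL4, 11 at RPS7 and 6 at RPL12. Among genes with a ratio, the median log2 scaled ratio was 0.02 for the 50 with a run of at least 8 and -0.05 for the 16 with a shorter run.

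Short motifs were then searched from 250 bases before to 50 after the same most 5′ start. The ETS core CCGGAAG on either strand was present in 23 of 68 ribosomal protein promoters (33.8%), in 14.1% of all promoters and in 42% of those of mitochondrial ribosomal proteins. The YY1 core AAGATGG on either strand was present in 13.2%, against 6.36% of all promoters and 33.3% of those of mitochondrial ribosomal proteins. The pyrimidine motif CTTTCC on the sense strand, which can overlap the runs above, was in 38.2%, against 14.4% of all and 21.7% of mitochondrial ribosomal protein promoters. Near the share of all promoters were GGGCGG, the SP1 core, with 54.4% against 58.3%, CCAAT, the NF-Y core, with 35.3% against 36.4%, and TATAAA on the sense strand, with 5.88% against 6.95%. The E-box CACGTG was in 5.88% against 8.82%, and GCATGCG of the NRF1 site in 7.35% against 5.15%. A match here is a description of letters and not evidence of binding. Members with the ETS core had a median log2 scaled ratio of 0.04, and those without it 0.01. With CTTTCC it was 0.15 (quartiles of -0.25 and 0.32), and without it -0.02 (-0.34 and 0.18). With the YY1 core, in 9 genes, it was 0.26 (-0.28 and 0.33), and without it 0.00 (-0.29 and 0.25). The quartile ranges with and without each of these 2 motifs largely overlapped.

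The strongest summit lay upstream of the start at most genes. It was upstream at 61 of 66 genes in hTBLC (92.4%) and at 62 of 67 in primed (92.5%), against 77.2% and 76.3% of all genes with a region. Its median position was 100 bp upstream in hTBLC and 111 bp upstream in primed, against 67 bp in hTBLC and 69 bp in primed over all genes. A summit within the 200 bp before the start was found at 48 of 66 genes in hTBLC (72.7%) and 50 of 67 in primed (74.6%), against 59.5% in hTBLC and 57.8% in primed over all genes with a region. The upstream share was similar in ribosome biogenesis genes, with 92.5% in hTBLC and 91.5% in primed. In the same order it was 90.6% and 87.5% in translation factors and other TOP genes, and 84.1% and 88.4% in mitochondrial ribosomal protein genes. Within the 200 bp the shares were 81.1% and 78.3% for biogenesis and 72.5% and 73.9% for mitochondrial genes. For translation factors and other TOP genes they were 46.9% and 50%. Summit position relative to the nearest start differed by at most 50 bp between the 2 libraries at 57 of 66 ribosomal protein genes (86.4%). The share was 80.6% of all matched promoters. The median difference was 14.5 bp, against 17 bp over all matched promoters. Where the 2 summits lie nearest to different starts of a gene, this difference is not the distance between them.

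**Figure D1:**
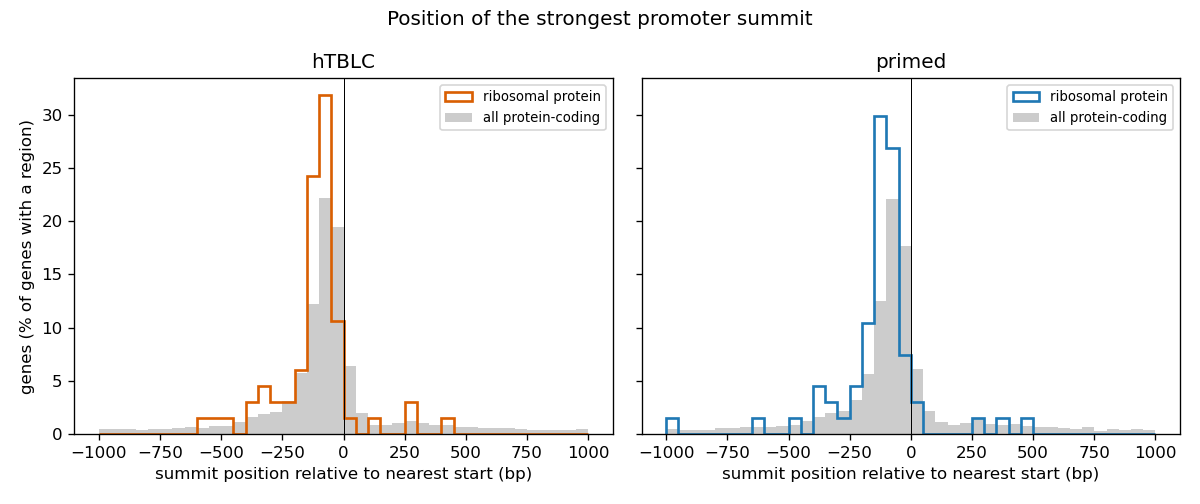
Position of the strongest summit relative to the nearest annotated start (x axis, bp, negative upstream) as a percentage of genes with a region (y axis), in hTBLC and in primed. Outlines are ribosomal protein genes and grey fill is all protein-coding genes. The outlines peak upstream of the start in both libraries, with medians of 100 bp in hTBLC and 111 bp in primed.

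These promoters were of moderate strength among all promoters. The median pileup of ribosomal protein genes was 74 in hTBLC and 72 in primed, against medians over all genes of 89 in hTBLC and 83 in primed. Only 6 of 66 genes reached the upper quartile of all promoters in hTBLC, a pileup of 147, and 6 of 67 reached that of primed, 128. The range ran from 15 at RPL12 to 269 at RPL36AL in hTBLC, and from 20 at RPL3 to 227 at RPL36AL in primed. RPL36AL is a copy of RPL36A whose window also holds the start of MGAT2, a gene of N-glycan synthesis. RPL15, the next strongest, had pileups of 261 (230 to 295) in hTBLC and 220 (192 to 251) in primed, and shares its window with the start of NKIRAS1. Both had a scaled ratio of 1.08 (0.90 to 1.30).

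The middle of the group lay close to equal pileups. The median scaled ratio of hTBLC to primed was 1.01, a log2 value of 0.01 with quartiles of -0.29 and 0.27, against 1.02 over 11823 protein-coding promoters, whose log2 quartiles were -0.28 and 0.31. The ratio was above 1 at 34 genes and below 1 at 32. The interval included 1 at 53 of the 66. The SD of the log2 ratio was 0.49 among ribosomal protein genes and 0.53 among all genes. Across the 66 genes the pileups of the 2 libraries had a Pearson correlation of 0.81 on the log2 scale and a Spearman correlation of 0.82, against 0.88 for both over all genes. These are descriptions over genes that share each library, its depth and its peak caller. Without scaling for depth the median log2 ratio was 0.14 for ribosomal protein genes and 0.16 for all genes, so both moved together by 0.13.

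**Figure D2:**
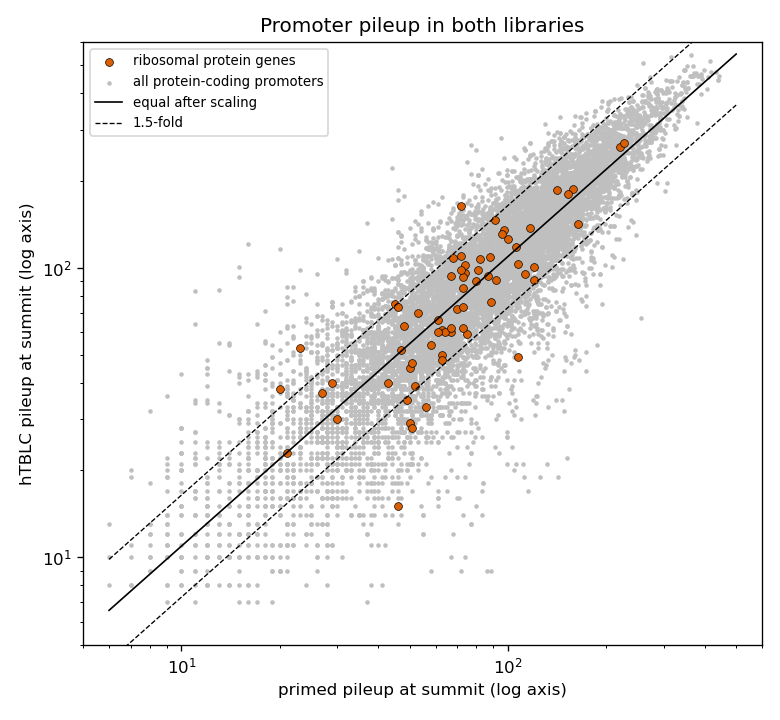
Pileup at the summit in primed (x axis) and hTBLC (y axis), both on log axes, for 66 ribosomal protein genes (orange) and 11823 protein-coding promoters (grey). The solid line marks equal pileups after scaling and the dashed lines 1.5-fold. Of the orange points, 4 lie above the upper dashed line and 6 below the lower one.

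Single genes went past 1.5-fold in both directions. Their shares were near those of all promoters and rest on few genes, so they are not read as a trait of the group. The scaled ratio was past 1.5-fold higher in hTBLC at 4 of 66 genes (6.06%), against 9.41% of all promoters, and past 1.5-fold lower at 6 (9.09%), against 11.2%. The interval lay above 1 at 6 genes, against 17.6% of all promoters, and below 1 at 7, against 13.6%. These interval counts also depend on pileup, whose hTBLC median was 74 for ribosomal protein genes and 89 over all promoters. The balance of the 2 directions depended on how pileups were counted. Without scaling 8 were past 1.5-fold higher and 5 lower, where all promoters gave 15.1% and 8.13%. When all regions in the window were summed, 3 were past it higher and 10 lower, where all promoters gave 11.3% and 13.9%. Such a sum takes 1 summit per region, so a promoter split into more regions in primed counts more summits there. Without scaling the interval lay above 1 at 13 genes and below 1 at 5, with 27.3% and 9.11% of all promoters.

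**Figure D3:**
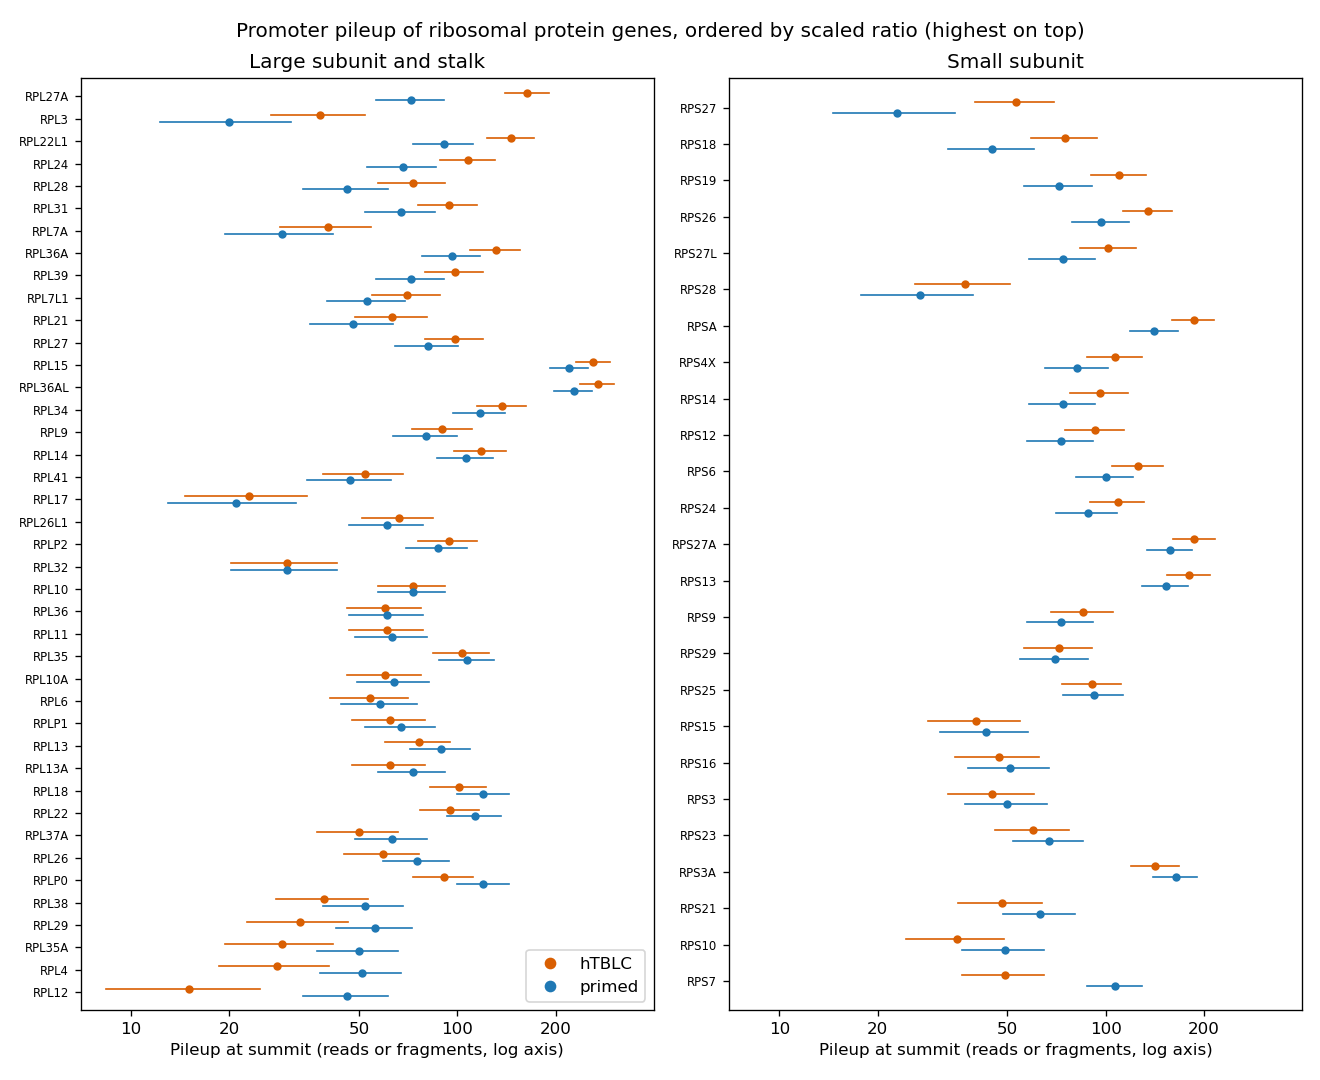
Pileup at the promoter summit (x axis, log scale) for each of 66 ribosomal protein genes in hTBLC (orange) and primed (blue), ordered by scaled ratio with the highest on top. Bars are exact Poisson 95% intervals of counting error. RPS27 and RPL27A head the panels and RPS7 and RPL12 close them, while the bars of most genes overlap.

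The highest ratio in the large subunit was at RPL27A, which encodes a protein of that subunit. Its pileup was 164 (140 to 191) in hTBLC and 72 (56.3 to 90.7) in primed, a scaled ratio of 2.08 (1.57 to 2.79). The counting intervals of the 2 libraries did not overlap. Its region was 917 bp wide in hTBLC and 673 bp in primed, and its window also holds the start of TRIM66.

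RPL3, which encodes a protein near the peptidyl transferase centre, had pileups of 38 (26.9 to 52.2) in hTBLC and 20 (12.2 to 30.9) in primed. The scaled ratio was 1.74, with an interval of 0.99 to 3.15 that included 1. In hTBLC 1 region of 909 bp covered the promoter, while in primed there were 3 separate regions of 300, 328 and 355 bp with pileups of 15, 20 and 18. Summed over all regions in the window the ratio was 0.66, so the direction at RPL3 depended on how split regions were counted.

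RPL22L1, RPL24 and RPL28 followed, below 1.5-fold. RPL22L1, a paralog of the RNA-binding protein gene RPL22, had pileups of 146 in hTBLC and 91 in primed, a ratio of 1.47 (1.12 to 1.93). RPL22 itself had 95 in hTBLC and 113 in primed, a ratio of 0.77 (0.58 to 1.02). The intervals of the 2 paralogs did not overlap. RPL24 had 108 in hTBLC and 68 in primed, a ratio of 1.45 (1.06 to 2.0), and RPL28 had 73 in hTBLC and 46 in primed, a ratio of 1.45 (0.99 to 2.15). RPL31, with 94 in hTBLC and 67 in primed, had a ratio of 1.28 (0.93 to 1.78).

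In the small subunit the highest ratio was at RPS27, whose product carries a zinc finger. Its pileup was 53 (39.7 to 69.3) in hTBLC and 23 (14.6 to 34.5) in primed, a scaled ratio of 2.11 (1.27 to 3.60). The region ran from chr1:153990501-153991057 in hTBLC and from chr1:153990535-153990774 in primed, so it was 557 bp and 240 bp wide, and both covered the start. RPS18 had 75 (59.0 to 94.0) in hTBLC and 45 (32.8 to 60.2) in primed, a ratio of 1.52 (1.04 to 2.26), the value nearest above the 1.5-fold limit. It was 1.49 with the median of all promoters set to a ratio of 1 and 1.11 with all regions summed, both inside the limit, and its window also holds the start of VPS52. RPS19, the gene in which mutations of Diamond-Blackfan anaemia were first found, had 110 in hTBLC and 72 in primed, a ratio of 1.40 (1.03 to 1.91), with summits 590 bp upstream of the start in hTBLC and 608 bp in primed. RPS26, another such gene, had 135 in hTBLC and 97 in primed, a ratio of 1.27 (0.97 to 1.67).

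The lowest ratio was at RPL12, whose product sits at the base of the stalk. The strongest region of its window had a pileup of 15 (8.40 to 24.7) in hTBLC and 46 (33.7 to 61.4) in primed, a ratio of 0.30 (0.15 to 0.54). This region did not cover the start: its summit lay 1048 bp upstream in hTBLC and 997 bp upstream in primed, and the window also holds the start of LRSAM1. The region that covered the RPL12 start itself had a pileup of 15 in hTBLC and 38 in primed, so it too was lower in hTBLC.

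RPS7, whose product belongs to the small subunit, had the lowest ratio of that subunit. Its pileup was 49 (36.3 to 64.8) in hTBLC and 107 (87.7 to 129) in primed, a ratio of 0.42 (0.29 to 0.59). The summits lay 38 bp upstream in hTBLC and 55 bp upstream in primed. The counting intervals of the 2 libraries did not overlap, and the region was 820 bp wide in hTBLC and 961 bp in primed. No other annotated start of a protein-coding gene lay in its window.

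RPL4, RPL35A and RPL29, all of the large subunit, came next. RPL4, whose product lines the exit tunnel of the nascent chain, had 28 in hTBLC and 51 in primed, a ratio of 0.50 (0.30 to 0.81). RPL35A, a Diamond-Blackfan anaemia gene, had 29 in hTBLC and 50 in primed, a ratio of 0.53 (0.32 to 0.85). The windows of these 2 genes also hold the starts of ZWILCH and DRC9, and their summits lay upstream, at 344 bp in hTBLC and 381 bp in primed for RPL4 and at 310 bp in hTBLC and 314 bp in primed for RPL35A. RPL29 had 33 in hTBLC and 56 in primed, a ratio of 0.54 (0.34 to 0.84), with no other start in its window.

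RPS10 was the last past the limit, with 35 in hTBLC and 49 in primed and a ratio of 0.65 (0.41 to 1.03). The interval included 1. Just inside the limit were RPL38, with a ratio of 0.69 (0.44 to 1.06), RPS21 with 0.70 (0.47 to 1.03), RPL26 with 0.72 (0.50 to 1.03) and RPL37A with 0.73 (0.49 to 1.07). None of these 4 was separable from 1 at this depth.

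The scaled ratios of the stalk genes were below 1, though that of RPLP2 lay above 1 without scaling. RPLP0 had 91 (73.3 to 112) in hTBLC and 120 (99.5 to 143) in primed, a ratio of 0.69 (0.52 to 0.92). Its unscaled ratio was 0.76, with an interval that reached up to 1.0. RPLP1 had 62 in hTBLC and 67 in primed, a ratio of 0.85 (0.59 to 1.21). RPLP2 had 94 in hTBLC and 87 in primed, a ratio of 0.99 (0.73 to 1.34), or 1.08 without scaling. Of the 3, the interval lay below 1 at RPLP0 alone, and that call rests on the scaling.

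A further 4 genes are given for what their products are known for. RPS6, whose product is phosphorylated by the S6 kinases, had 126 in hTBLC and 100 in primed, a ratio of 1.15 (0.88 to 1.51). RPSA, also known as a laminin receptor, had 186 in hTBLC and 141 in primed, a ratio of 1.21 (0.96 to 1.51). RPL11, whose product binds MDM2 and restrains it, had 61 in hTBLC and 63 in primed, a ratio of 0.89 (0.61 to 1.28). RPS27A, which encodes a fusion of ubiquitin with a ribosomal protein, had 187 in hTBLC and 158 in primed, a ratio of 1.08 (0.87 to 1.35), and shares its window with the start of CLHC1. The interval included 1 at all 4.

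On chromosome X, 4 genes had a ratio. RPL10 had a pileup of 73 in hTBLC and 73 in primed, a ratio of 0.91 (0.65 to 1.28), or 0.52 with all regions in the window summed. RPS4X had 107 in hTBLC and 82 in primed, a ratio of 1.19 (0.89 to 1.61), RPL39 had 98 in hTBLC and 72 in primed, a ratio of 1.24 (0.91 to 1.71), and RPL36A had 131 in hTBLC and 96 in primed, a ratio of 1.25 (0.95 to 1.64). All 4 intervals included 1. The group median was a log2 ratio of 0.29 on chromosome X and -0.01 on the autosomes.

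By subunit, the median log2 ratio was -0.01 over 38 large subunit genes without the stalk and 0.11 over 25 small subunit genes, with quartiles of -0.36 and 0.27 and of -0.25 and 0.27. The 2 ranges overlapped over nearly their whole length, from -1.75 to 1.06 in the large and from -1.26 to 1.08 in the small subunit. Paralogs outside the standard ribosome, 5 genes with a ratio, had a median of 0.27, and the 61 standard genes one of -0.02. The 17 Diamond-Blackfan anaemia genes with a start had a median of 0.04, with 1 past 1.5-fold higher, RPS27, and 3 past it lower, RPS7, RPL35A and RPS10. These are shares of 5.88% and 17.6%, beside 9.41% and 11.2% of all promoters.

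Many ribosomal protein genes carry small nucleolar RNA genes in their introns. At least 1 lay inside 19 of 68 genes (27.9%), against 2.69% of all genes with a start. The median log2 ratio was 0.00 for the 19 host genes and 0.02 for the other 47. The window of 16 members also holds the annotated start of another protein-coding gene or of a read-through form. Of the 10 genes past 1.5-fold, 5 were among those 16. Of the 16, 12.5% were past it higher and 18.8% lower, and of the other 50 with a ratio 4% and 6%. All promoters gave 9.41% and 11.2%. The SD of the log2 ratio was 0.66 for the 16, which include RPL12 at -1.75, and 0.43 for the other 50. Shared windows among all promoters were not examined separately. At such windows a pileup cannot be assigned to 1 of the 2 starts.

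**Figure D4:**
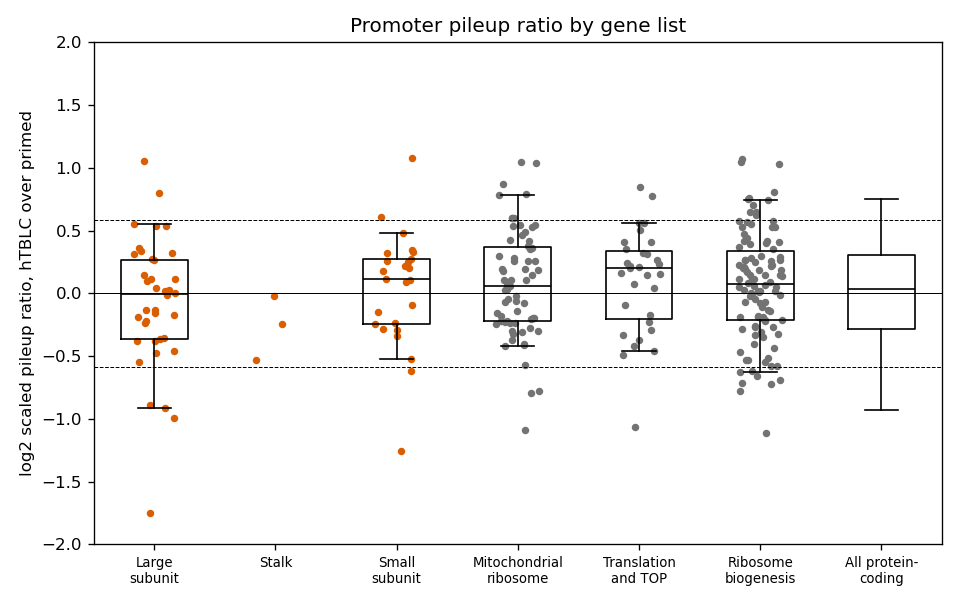
log2 scaled pileup ratio of hTBLC over primed (y axis) for ribosomal protein genes (orange, by subunit) and other lists (grey). Points are genes, boxes are medians and quartiles, whiskers run from the 5th to the 95th percentile and dashed lines mark 1.5-fold. The medians lie at -0.01 for the large subunit, 0.11 for the small subunit and 0.03 for all protein-coding promoters.

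Other genes of protein synthesis were set beside them. Of 69 genes of the mitochondrial ribosome, all had a promoter region in both libraries, and the 68 with a ratio had a median log2 ratio of 0.06, with 8 past 1.5-fold higher (11.8%) and 3 lower (4.41%), against 9.41% and 11.2% of all promoters. The highest were MRPL39 with 2.07, MRPS5 with 2.06 and MRPL9 with 1.83, and the lowest MRPL28 with 0.47, MRPL43 with 0.58 and MRPL11 with 0.58. Of 106 ribosome biogenesis genes, 11 were past it higher and 8 lower, and their median was 0.07. The highest were WDR3 (2.10), TEX10 (2.07) and LSG1 (2.05), and the lowest NOB1 (0.46), DDX54 (0.58) and DDX27 (0.61).

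The list of translation factors and other TOP genes had a median log2 ratio of 0.20 over 31 genes, with 2 past 1.5-fold higher and 1 lower. VIM had 136 in hTBLC and 69 in primed, a ratio of 1.80 (1.34 to 2.44). EEF1A1, the elongation factor gene with a classical TOP mRNA, had 316 in hTBLC and 169 in primed, a ratio of 1.71 (1.41 to 2.07). EIF2S3 had a ratio of 1.47 (1.17 to 1.85). EIF4G1, the scaffold of the cap-binding complex, had 36 in hTBLC and 69 in primed, a ratio of 0.48 (0.31 to 0.72), EIF5 had 0.71 (0.55 to 0.92) and EIF4H had 0.73 (0.48 to 1.11).

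Region widths were compared next. The region was wider in hTBLC at 40 of 66 ribosomal protein genes (60.6%), against 46.9% of all promoters, and narrower at 26. The median width was 872 bp in hTBLC and 788 bp in primed, where all promoters had 914 bp in hTBLC and 933 bp in primed. The median of the ratio of widths was nonetheless only 1.02, with quartiles of 0.94 and 1.31, against 0.99 over all promoters. Width can depend on each list's calling threshold, and the lowest deposited −log10 p was 2.83 in hTBLC and 2.0 in primed.

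Larger differences in width were mostly towards wider hTBLC regions. At 9 of 66 genes (13.6%) the region was past 1.5-fold wider in hTBLC, against 7.04% of all promoters, and at 1 (1.52%), RPL12, it was past 1.5-fold narrower, against 9.08%. The widest changes were at RPL10, with 1031 bp in hTBLC and 373 bp in primed, RPL3, with 909 bp in hTBLC and 328 bp in primed, and RPL26L1, with 1245 bp in hTBLC and 453 bp in primed. At each of these the hTBLC region spanned ground that the primed list divided into 2 or more regions. More primed than hTBLC regions were listed at 4 of the 9 genes.

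At RPL10, which encodes a protein added late in assembly of the large subunit, the primed list had a region of 588 bp with a pileup of 56 and one of 373 bp with a pileup of 73. The hTBLC list had 1 region from chrX:154397356-154398386 with a pileup of 73, so the width differed while the unscaled ratio of the strongest summits was 1.0. Summed over all regions the scaled ratio was 0.52, past 1.5-fold lower. That sum took 2 summits in primed and 1 in hTBLC, so it reflects how the region was split. At RPS27, 557 bp in hTBLC against 240 bp in primed, both lists had 1 region. RPS10 was 868 bp wide in hTBLC and 405 bp in primed, with the lower pileup in hTBLC. The others of the 9 were RPS21, RPL10A, RPL41 and RPS18.

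The lowest width ratio was at RPL12, with 261 bp in hTBLC and 788 bp in primed. These are the widths of its upstream region, while the region that covered the start was 468 bp wide in hTBLC and 381 bp in primed, so the direction at RPL12 depends on the region taken. RPL35A, with 683 bp in hTBLC and 970 bp in primed, and RPL38, with 735 bp in hTBLC and 991 bp in primed, followed. All 3 also had a pileup ratio below 1. Across the 66 genes the log2 ratios of pileup and of width had a Pearson correlation of 0.40 and a Spearman correlation of 0.21, against 0.23 and 0.16 over all promoters.

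**Figure D5:**
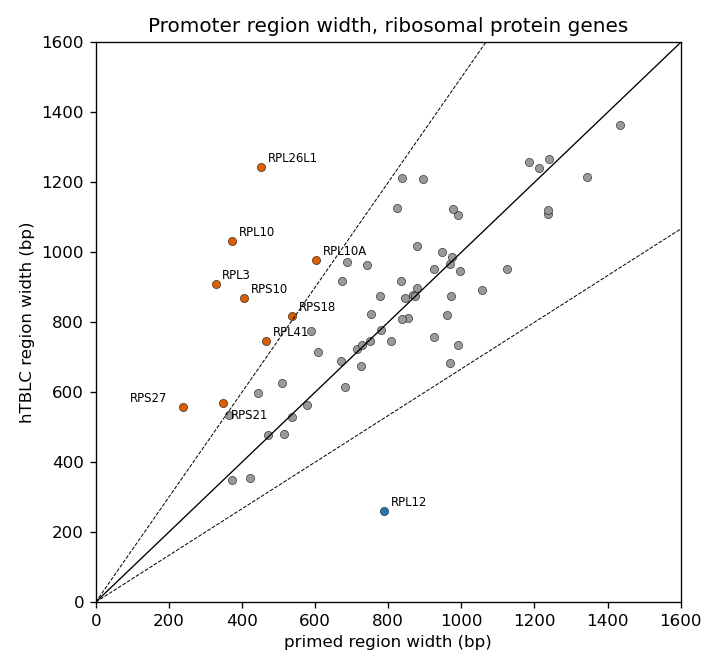
Width of the strongest promoter region in primed (x axis, bp) and hTBLC (y axis, bp) for 66 ribosomal protein genes. The solid line marks equal width and dashed lines 1.5-fold, with genes past it named. Of the points, 9 lie above the upper dashed line and 1, RPL12, below the lower one, plotted by its upstream region, whereas the region covering its start was wider in hTBLC (468 bp) than in primed (381 bp).

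The 17 ribosomal protein genes without an annotated start were examined within 1 kb of either gene end, where a region can also lie at the 3′ end. All 17 had a region in both libraries, against 78.6% of all protein-coding genes. Their median scaled ratio was 1.07, with a range from 0.80 at RPL8 to 1.63 at RPL23. It was past 1.5-fold higher at 3 of 17, against 9.45% of all genes, and past it lower at none, against 12.6%.

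RPL5, whose product joins RPL11 and 5S RNA in binding MDM2, had 164 in hTBLC and 99 in primed, a ratio of 1.51 (1.17 to 1.96). RPS20 had 164 in hTBLC and 93 in primed, a ratio of 1.61 (1.24 to 2.10), and RPL23 had 41 in hTBLC and 23 in primed, a ratio of 1.63 (0.96 to 2.85), whose interval included 1. RPL7, with 161 in hTBLC and 99 in primed, lay just inside the limit with 1.49 (1.15 to 1.93).

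Of the tissue-restricted paralogs, RPL39L, a testis copy of RPL39, had 138 in hTBLC and 127 in primed, a ratio of 0.99 (0.78 to 1.27). RPL3L, the form of striated muscle, had 130 in hTBLC and 129 in primed, a ratio of 0.92 (0.72 to 1.18). Both had regions of similar strength in the 2 states, with intervals that included 1. As these regions were taken at either gene end, they cannot be assigned to the promoters of RPL39L and RPL3L. Over all 85 genes by gene ends, 75 had a ratio, with a median of 0.99. Of these, 4 (5.33%) were past 1.5-fold higher and 8 (10.7%) lower, against 9.45% and 12.6% of all genes. The 4 include RPL5, RPS20 and RPL23, which have no annotated start.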

How the data were processed

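ATAC-seq peaks of 1 hTBLC and 1 primed library were used. The submitters' processing notes name Bowtie2, Picard, MACS2 and hg38, without versions or settings, and how reads were shifted or duplicates treated is not given in the sources used here. Deposited by the authors were, per peak, a fold ratio over local background, a −log10 p-value and −log10 q-value, a score that was not used, and positions in bp. Peaks were called in each library separately. Whole pileups were solved from fold and −log10 p for 99.998% of hTBLC and 99.999% of primed peaks, within 0.001. Peaks that overlapped or touched were merged, using chromosomes 1 to 22 and X. Starts came from a RefSeq promoter table of GRCh38.p14. Every annotated start had a window of 1 kb on either side, and the strongest region of each library was compared where the 2 overlapped. Read-through genes and RPS19BP1, 4 in all, were left out.

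Ratios have exact binomial, pileups exact Poisson and shares Wilson 95% intervals. A difference was called past 1.5-fold, with no test. Named genes were the 10 highest and 10 lowest ratios, members open in 1 library or none, the 3 extreme widths each way, the 3 extremes of other lists and 14 fixed by name. RPL22, RPL37A, RPL36A, RPL39, RPL15, RPL36AL, RPS27A, RPL10A, RPL41, RPS20, RPL23, RPL7 and RPL8 were named after their values were seen. Members and lists were chosen with earlier results of these data known. The steps were tested on simulated data. Versions were Python 3.11.15, pandas 2.3.3, numpy 2.4.6 and scipy 1.17.1.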

Additional observations from a re-analysis of the deposited data

How the results depend on the processing

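The 5 group results were recomputed under up to 15 other settings, of which the windows around the most 5′ start alone and the region nearest to a start were chosen after the data were seen. The count of genes open in both libraries, 66 of 68, was 60 of 68 for peaks whose −log10 q reached 10 and 50 of 52 without shared windows. It was 65 to 67 of 68 in the other settings that counted it over all 68. The strongest regions of the 2 libraries overlapped by 50% or more of each at 60 of 68 genes, a count of matched regions and not of open promoters. The median log2 width ratio was 0.02 or 0.03. The median log2 pileup ratio was 0.14 without scaling, where all promoters also moved, and between -0.05 and 0.02 elsewhere. The count past 1.5-fold higher was 4 of 66 genes, where all promoters gave 9.41%. Without scaling it became 8 of 66, beside 15.1% of all promoters. Under a −log10 q cut-off of 10 it fell to 2 of 60, beside 8.81%. Requiring 50% mutual overlap of the regions also left 2 of 60, beside 9.32%. Leaving out genes with shared windows left 2 of 50, and all promoters were not filtered in this way. The count past 1.5-fold lower was 6 of 66 genes, where all promoters gave 11.2%. It became 10 of 66 with summed regions, beside 13.9% of all promoters, and 3 of 50 without shared windows. The −log10 q cut-off of 10 gave 5 of 60, beside 8.94%, and mutual overlap gave 4 of 60, beside 10.1%. Of 386 recomputed ratios of 27 named genes, 384 stayed inside their counting interval. The exceptions were RPL3 (0.66) and RPL10 (0.52), both with summed regions, where primed had more regions than hTBLC. Most settings changed which genes or regions were kept, and left a ratio unchanged wherever the strongest regions stayed the same. Genes without a ratio in a setting were not counted. The count of 384 is therefore no measure of robustness. No paired analysis was possible because each group has 1 library. Low pileups limit single genes, as at RPL3, whose interval ran from 0.99 to 3.15. The cause of these changes was not tested.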
